A study of Mus musculus with 24 samples.

Results

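The microRNAs (miRNAs) mmu-miR-3963 and mmu-miR-3968 were followed over 24 one-colour Agilent arrays of mouse liver RNA, as 2 of the 1881 mouse miRNAs on the array. They were chosen by their measured storage response, mmu-miR-3963 as a top signal after 96 h of storage and mmu-miR-3968 as the largest fall with storage. Liver of 3 male mice, numbered 7, 9 and 10, was cut into pieces that were preserved at once (0 h) or left at room temperature for 96 h. Total RNA including small RNAs was isolated at both times with or without DNase digestion, which gave 4 groups. RNA depleted of small RNAs was isolated with DNase from 0 h tissue with another kit, which retains few short molecules but is not free of them, and it was hybridised either untreated or incubated with 0 U, 0.026 U or 0.67 U of RNase. Each of the 8 groups held 3 arrays, 1 per mouse. The age of the mice is not given in the sources used here, and their strain is not stated for these livers (C57BL6 mice of an Il1a knock-out strain are named for the time course of the same study). The 2 RNase arrays of mouse 9 carry opposite doses in different label fields and were placed here by the description.

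A miRNA is a short RNA cut from a hairpin precursor by Drosha and Dicer. It guides Argonaute proteins to messenger RNAs mainly through its seed, the bases from position 2 to 8. On an array a miRNA is read by probes complementary to its mature sequence, so any RNA piece that pairs with these probes and can be labelled at its 3′ end adds to the signal. Numbers in miRNA names rise broadly with the date of naming, and both members carry late numbers. No function of either member is assumed here.

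The mature sequences are shown because the members resemble each other. They are from RefSeq on build GRCm38.p6, written 5′ to 3′, with the seed in capitals.

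mmu-miR-3963: uGUAUCCCacuucugacac
mmu-miR-3968: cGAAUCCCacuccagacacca
mmu-miR-5100: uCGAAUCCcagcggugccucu

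Laid side by side from the first base, without gaps, mmu-miR-3963 and mmu-miR-3968 carried the same base at 15 of 19 positions, 6 of the 7 seed bases included, and the longest run in common was 8 bases (aucccacu). Their seeds differ, so they form no seed family. mmu-miR-5100 shared a run of 9 bases (cgaauccca) with mmu-miR-3968 and is shown as the closest relative with a bright signal. mmu-miR-3968 ends in CCA, as do 22 of the 1608 mature sequences found in RefSeq for the array's miRNAs (1.37%). Mature transfer RNAs end in the same letters, and a shared ending is a description of the letters only.

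The precursors place the mature sequence, here in capitals, on opposite arms. Mir3963 lies on the minus strand of chromosome 3, its mature sequence at chr3:151023839-151023857, where the RefSeq gene table lists no other gene. Mir3968 lies on the minus strand of chromosome 11, its mature sequence at chr11:115447969-115447989, and overlaps the protein-coding gene Trim80. Exons and introns of Trim80 were not examined.

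Mir3963 precursor, mature on the 5′ side: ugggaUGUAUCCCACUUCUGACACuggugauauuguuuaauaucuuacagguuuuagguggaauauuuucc
Mir3968 precursor, mature on the 3′ side: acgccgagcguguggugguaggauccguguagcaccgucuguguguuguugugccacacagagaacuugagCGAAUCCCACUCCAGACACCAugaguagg

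Both members were flagged detected on all 24 arrays and had no saturated spot. Each was read by 2 probes with 15 spots each, and signals are given in background-subtracted intensity units. The RNA integrity number (RIN), a scale from degraded (low) to intact (high), was 8.8 to 9.0 at 0 h, 2.3 to 2.5 at 96 h, 9.0 to 9.4 in depleted RNA without RNase, 6.0 to 7.0 at 0.026 U and 2.4 to 2.9 at 0.67 U. For mouse 9 the RIN followed the dose of the description, with 6.0 at 0.026 U and 2.4 at 0.67 U. Detected miRNAs (408 and 349) and their summed signal (177642 and 70313 units) were higher at 0.026 U in mouse 9. In mice 7 and 10 both were higher at 0.67 U. At 0 h, RNA with small RNAs gave 273 to 342 detected miRNAs, and at 96 h it gave 582 to 707. All 4 hepatocyte miRNAs fixed as a tissue check (mmu-miR-122-5p, mmu-miR-192-5p, mmu-miR-194-5p and mmu-miR-148a-3p) were detected on every array with small RNAs. In tissue RNA, fewer cells of a type and less RNA per cell cannot be told apart. On 8 arrays (all 6 of the 96 h groups, 0.67 U of mouse 10 and 0.026 U of mouse 9) the total signal was 0.279 to 0.300 times the mean spot signal, against 0.212 on the other 16. That factor raises every raw signal of an array alike, so raw values at 96 h are somewhat high beside those at 0 h.

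In fresh RNA with DNase, mmu-miR-3963 gave 9627 units in mouse 7, 19129 in mouse 9 and 26046 in mouse 10. Without DNase it gave 36039, 34303 and 42776 units in the same order. Mouse 7 was the lowest by far with DNase. On all 6 of these arrays mmu-miR-3963 was the second brightest of 1881 miRNAs, with 17.4% to 27.3% of the summed signal of detected miRNAs.

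After 96 h with DNase, mmu-miR-3963 gave 28429 units in mouse 7, 89031 in mouse 9 and 5923 in mouse 10. Without DNase it gave 6635, 10618 and 7749 units in the same order. The storage group with DNase was thus spread over a 15.03-fold range, from below all 0 h arrays with small RNAs to above all other arrays of the series. The group without DNase lay below its 0 h group in every mouse. The mean of 41128 units with DNase made mmu-miR-3963 the brightest miRNA of that group, which rested on mice 7 and 9, since it ranked only 8 in mouse 10. The next brightest by group mean was mmu-miR-5126 with 19114 units. Without DNase mmu-miR-3963 was in place 6, and mmu-miR-8110 led with 27022 units.

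In fresh RNA with DNase, mmu-miR-3968 gave 1639 units in mouse 7, 3716 in mouse 9 and 5130 in mouse 10. Without DNase it gave 7438, 7103 and 9032 units in the same order. As for mmu-miR-3963, mouse 7 with DNase was the lowest of these arrays. mmu-miR-3968 ranked 4 or 5 on these 6 arrays, with 2.97% to 5.64% of the detected signal.

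After storage mmu-miR-3968 was left with 185 units in mouse 7, 231 in mouse 9 and 133 in mouse 10 with DNase. Without DNase the values were 471, 422 and 299. Every stored array was below every fresh array. Its share of the detected signal was 0.0637% to 0.240% and its rank fell to between 46 and 126, yet it stayed detected.

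**Figure D1:**
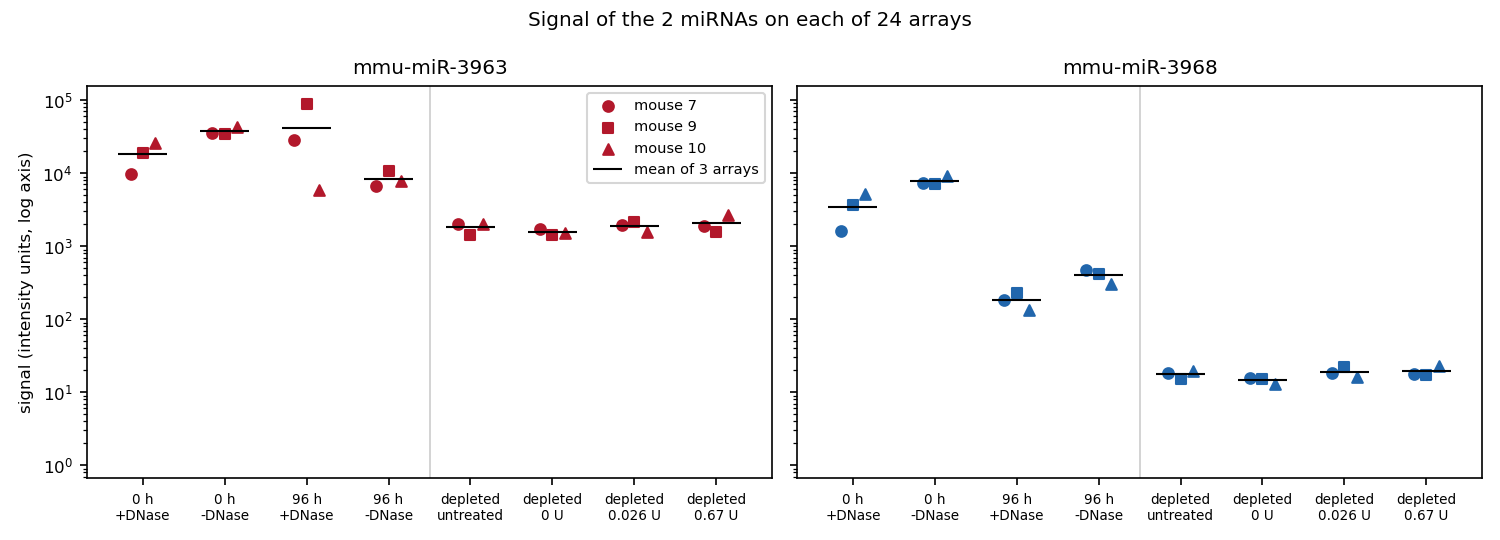
Signal of mmu-miR-3963 (left) and mmu-miR-3968 (right) on each array, in intensity units on a log axis, by group and mouse, with the mean of 3 arrays as a line. mmu-miR-3963 at 96 h with DNase spreads from 5923 to 89031 units, while mmu-miR-3968 is at 471 units or less on all 96 h arrays and between 13.0 and 23.1 units on all depleted arrays.

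Changes between groups are given in glog2 units, the scale of variance stabilising normalisation (vsn), on which 1 unit is a 2-fold change for bright signals. The storage changes chose the members, so they are described without a test. An SE or interval of a change is from the limma fit, in which all 8 groups share 1 estimate of the spread. It is therefore not the spread of the mice compared. With DNase mmu-miR-3968 changed by -5.06 in mouse 7, -6.20 in mouse 9 and -6.61 in mouse 10 (mean -5.96, SE 0.32). Without DNase the mean was -5.998 (SE 0.32), with 3 of 3 mice lower. These were the lowest changes of the 631 miRNAs tested (those detected on at least 5 arrays), and the next was mmu-let-7e-5p, a let-7 family member, with -5.56 with DNase and -5.38 without. First place was not kept under every setting: without normalisation mmu-miR-3968 stood in place 3 from the lowest with DNase and 2 without, and without DNase it was in place 2 by the 75th percentile of the miRNAs detected on all arrays and in place 5 with quantile normalisation.

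For mmu-miR-3963 the change with storage and DNase was -0.36 in mouse 7, 0.02 in mouse 9 and -3.49 in mouse 10 (mean -1.28, SE 0.59, SD of the 3 mice 1.93). Without DNase it was -4.09, -3.27 and -4.28 in the same order (mean -3.88, SE 0.59). The label of opposite responses is therefore not borne out on this scale: mmu-miR-3963 was lower after storage without DNase in 3 of 3 mice, and with DNase 1 mouse was much lower and the others were near 0. Without mouse 10 the mean with DNase was -0.17. In raw signal with DNase, mmu-miR-3963 was 2.95 and 4.65 times its fresh value in mice 7 and 9 and 0.227 times in mouse 10. Divided by the factor between total and spot signal, the raw ratios were 2.09, 3.54 and 0.161.

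How storage looks for mmu-miR-3963 with DNase thus turned on scaling. Without normalisation the mean change was 0.55, or 0.08 after division by the factor, and under 7 other ways of scaling, background correction or filtering it lay between -3.03 and -0.16. The median of all tested miRNAs itself moved by 2.47 with DNase and 2.16 without on the glog2 scale, and of the miRNAs tested 81.9% and 83.5% were called in these comparisons. Relative to that median, mmu-miR-3963 stood at -3.75 with DNase and -6.04 without. A miRNA could pass the detection filter through the stored arrays alone, so this median depends on the filter. Over all 1881 miRNAs, without the filter, the median was -0.003 with DNase and 0.15 without. Relative to it, mmu-miR-3963 stood at -1.27 and -4.03. mmu-miR-3963 stayed below the median under all 10 settings compared, and so did mmu-miR-3968.

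**Figure D2:**
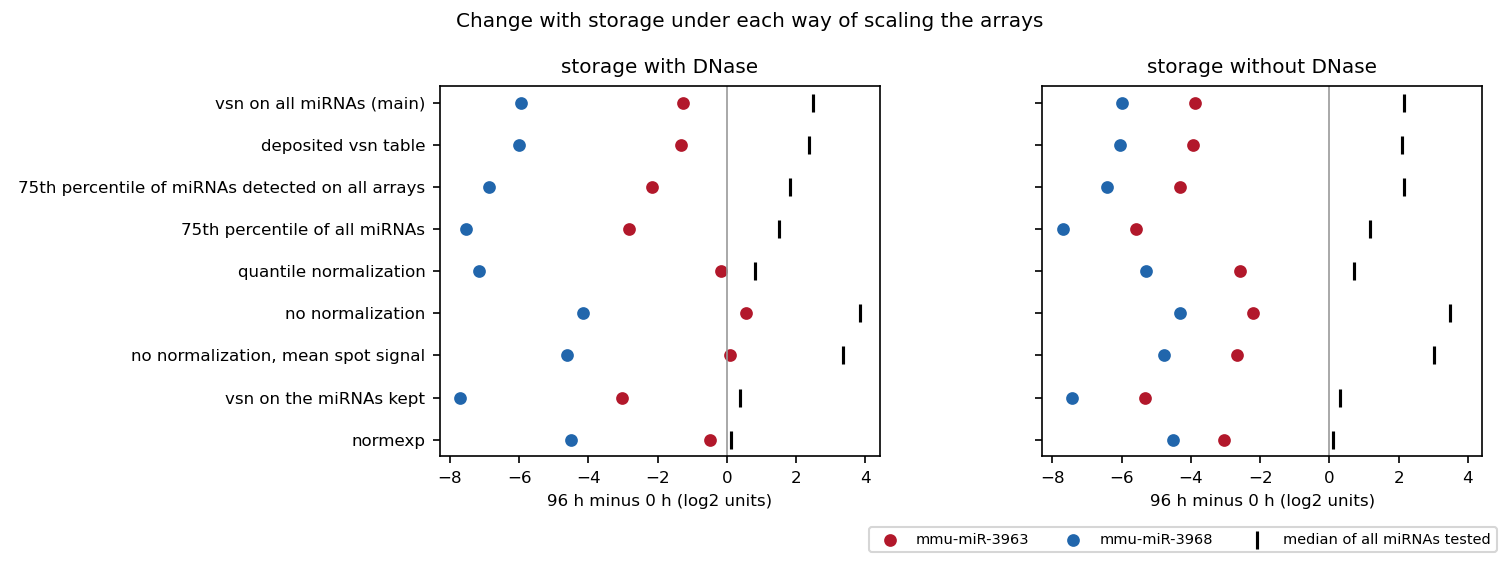
Change with storage (96 h minus 0 h, log2 units) of both members and the median of all miRNAs tested, under each way of scaling or correcting the arrays, with DNase (left) and without (right). mmu-miR-3968 lies between -7.71 and -4.14 in every row, and mmu-miR-3963 crosses 0 in the left panel only, in the 2 rows without normalisation.

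In raw signal, a difference between the members within an array does not depend on any 1 factor that scales the whole array. With DNase, storage left mmu-miR-3963 higher relative to mmu-miR-3968 by 26.1 times in mouse 7, 74.9 times in mouse 9 and 8.80 times in mouse 10. Without DNase the factors were 2.91, 5.21 and 5.46. As a mean log2 difference this was 4.69 with DNase and 2.12 without, against 7.00 and 2.72 after quantile normalisation and 4.02 and 1.49 with normexp background correction, which scale bright and dim signals differently. The members so moved apart in the same direction in every mouse, and this too is a description, since their storage changes chose them.

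The DNase comparison sets arrays without the digestion against arrays with it, and a part of residual DNA cannot be told apart there from other effects of the step. At 0 h both members were higher without DNase in 3 of 3 mice, but neither change was called. For mmu-miR-3963 it was 1.14 (SE 0.59, limma with Benjamini-Hochberg adjustment, adjusted p = 0.991) and for mmu-miR-3968 1.30 (SE 0.32, adjusted p = 0.183). Both 0 h groups are part of the storage changes that chose the members, so these tests are not independent of the choice. No miRNA was called in this comparison by limma (0%) or by the exact rank test, whose smallest p at 3 against 3 is 0.1, and 30 had a raw limma p under 0.05. The raw log2 changes of the members differed within each mouse by -0.28 to -0.09, and the mean difference was 0.18 with quantile normalisation and -0.57 with normexp.

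At 96 h the glog2 changes of the members had opposite signs, and their difference was not tested. In raw signal the log2 change of mmu-miR-3963 minus that of mmu-miR-3968 was -3.45 in mouse 7, -3.94 in mouse 9 and -0.79 in mouse 10. In mouse 10 both members were higher without DNase in raw signal (1.31 and 2.26 times). mmu-miR-3968 was higher without DNase, by 1.58 in mouse 7, 1.46 in mouse 9 and 0.73 in mouse 10, and the change of 1.25 (SE 0.32) was called by limma (adjusted p = 0.0130), as were 10.8% of the miRNAs tested. This call was lost without mouse 7 (1.09, adjusted p = 0.303), without mouse 9 (1.15, adjusted p = 0.335) and in a limma fit of only the compared groups (adjusted p = 0.131). For mmu-miR-3963 the change was -1.86 in mouse 7, -2.48 in mouse 9 and -0.05 in mouse 10, a mean of -1.46 (SE 0.59) that was not called (adjusted p = 0.132). It was called without mouse 10 (-2.17, adjusted p = 0.0373). The 96 h arrays also served to choose the members, so these tests are not independent of the choice.

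The storage change without DNase minus that with DNase was -2.60 (SE 0.84) for mmu-miR-3963, with 3 of 3 mice below 0. For mmu-miR-3968 the same difference was -0.04 (SE 0.45). Both are made of the storage changes that chose the members, so they are given without a test, and of all miRNAs tested 1.11% were called in this comparison.

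Depletion of small RNAs separated the members most evenly. The depleted arrays played no part in the choice, but the 0 h arrays with DNase that they are set against did. On untreated depleted arrays mmu-miR-3963 gave 2003 units in mouse 7, 1442 in mouse 9 and 1996 in mouse 10, in raw signal below all 12 arrays with small RNAs. In glog2 units this did not hold for mouse 7 (11.50). Its array stood above those at 96 h of mouse 10 with DNase (11.47) and of mice 7 and 10 without (11.43 and 11.415). mmu-miR-3968 gave 18.5, 15.4 and 19.6 units, in place 46, 48 and 53 among 230, 186 and 192 detected miRNAs. In raw signal mmu-miR-3963 stood at 0.208, 0.0754 and 0.0766 times its fresh value, and mmu-miR-3968 at 0.0113, 0.00414 and 0.00381 times.

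In glog2 units the change was -3.16 (SE 0.59, limma, adjusted p = 0.00019) for mmu-miR-3963 and -7.34 (SE 0.32, adjusted p = 4.72e-13) for mmu-miR-3968, lower in 3 of 3 mice each. Of the miRNAs tested, 29.8% were called. Within an array, depletion left mmu-miR-3963 higher relative to mmu-miR-3968 by 18.5, 18.2 and 20.1 times in mice 7, 9 and 10, a mean log2 difference of 4.24 ± 0.08 (SD, n = 3), against 5.06 with quantile normalisation and 3.73 with normexp. That difference was far larger than its spread between mice. It was not tested, and an exact test over 3 mice could not give a two-sided p below 0.25. The call of mmu-miR-3963 rested on the scaling: it was -0.98 (adjusted p = 0.197) with arrays scaled to the 75th percentile of the miRNAs detected on all arrays, 0 under quantile normalisation and 0.13 with normexp background correction, in limma fits of their own. Despite its lower signal, mmu-miR-3963 remained the second brightest miRNA on all 6 depleted arrays without RNase, with 14.98% to 23.8% of the detected signal, and mmu-miR-3968 held 0.129% to 0.221%.

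**Figure D3:**
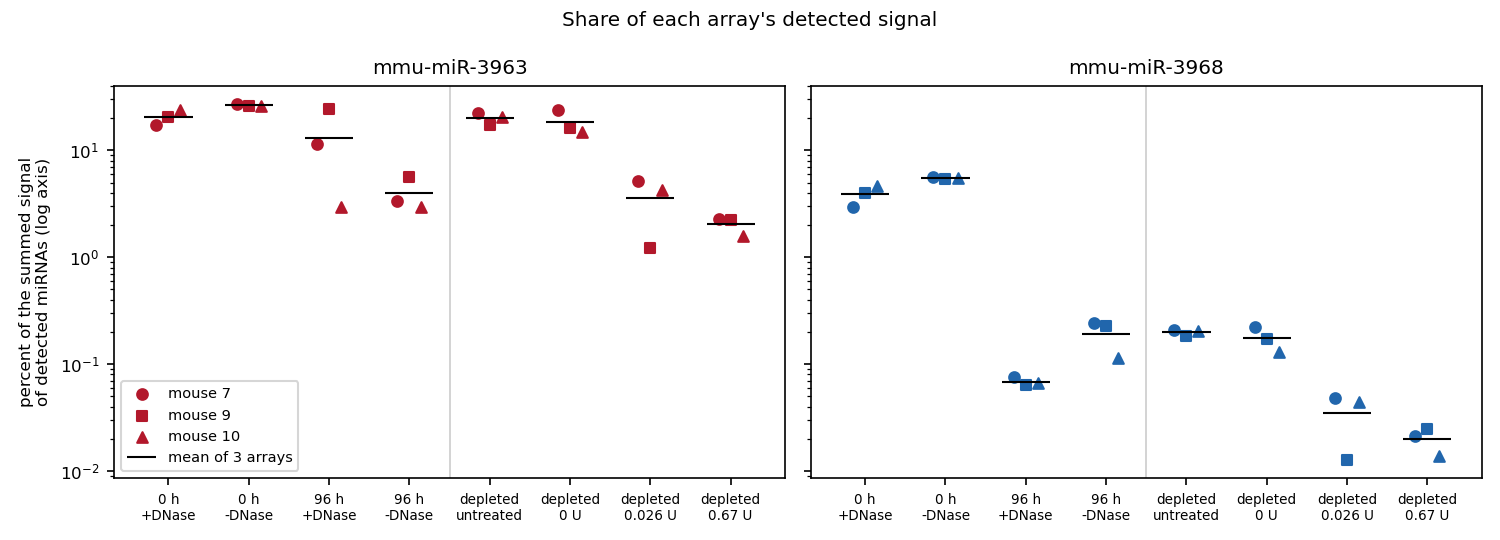
Share of the summed signal of detected miRNAs taken by mmu-miR-3963 (left) and mmu-miR-3968 (right), in percent on a log axis, by group and mouse, with the mean of 3 arrays as a line. mmu-miR-3963 holds 14.98% or more on all 0 h arrays without RNase, whether or not small RNAs were depleted, and 5.67% or less on the 96 h arrays without DNase and on the RNase arrays.

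Incubation at 0 U tests the handling alone. It left mmu-miR-3963 at 1699, 1419 and 1504 units in mice 7, 9 and 10, and mmu-miR-3968 at 15.7, 14.96 and 13.0 units. The glog2 changes were 0.08 (SE 0.59, limma, adjusted p = 0.992) and 0.02 (SE 0.32, adjusted p = 0.999), and 1.74% of the miRNAs were called. Both groups overlapped with the untreated arrays.

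RNase on depleted RNA asks which signals arise from fragments of longer RNA. At 0.026 U mmu-miR-3963 gave 1964, 2156 and 1556 units in mice 7, 9 and 10, and at 0.67 U 1909, 1581 and 2690 units. mmu-miR-3968 gave 18.1, 22.3 and 15.9 units at 0.026 U and 17.7, 17.4 and 23.1 units at 0.67 U. In raw signal the RNase arrays overlapped with the 0 U arrays for mmu-miR-3963 and lay just above them for mmu-miR-3968, and the highest array of each dose was 1 of the 2 with the larger factor between total and spot signal. After normalisation both members overlapped with 0 U.

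For both doses against 0 U, the change was -0.08 (SE 0.51, limma, adjusted p = 0.950) for mmu-miR-3963, with a 95% interval from -1.15 to 0.99, and -0.05 (SE 0.27, adjusted p = 0.950) for mmu-miR-3968, with an interval from -0.62 to 0.53. In this comparison 44.7% of the miRNAs were called, 282 higher and 0 lower, but 165 higher and 157 lower with quantile normalisation. At single doses the changes of the members lay between -0.08 and -0.02, where 36.8% (0.026 U) and 45.3% (0.67 U) were called. Between the doses no miRNA was called (0% by limma and by the rank test, while 9 had a raw limma p under 0.05), and the members differed by -0.01 and -0.06. With the doses of mouse 9 by title, limma called 29 miRNAs.

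The flat result of the members with RNase depended on the scaling. With quantile normalisation both fell, and the change for both doses was -2.21 (limma, adjusted p = 0.0091) for mmu-miR-3963 and -1.78 (adjusted p = 0.00031) for mmu-miR-3968, and without normalisation it was 0.34 and 0.38, neither called. The share of the detected signal fell, as the values with quantile normalisation did: mmu-miR-3963 held 14.98% to 23.8% at 0 U and 1.21% to 5.22% on the RNase arrays. The summed signal of detected miRNAs was 7125 to 10043 units on the 0 U arrays and 36325 to 177642 on the RNase arrays. In raw signal the ratio of the members within an array was 0.921 to 1.0003 times the 0 U ratio in the 3 mice, averaged over doses. With normexp the log2 change of mmu-miR-3963 over both doses was 1.87 below that of mmu-miR-3968 (a difference of -1.87), and with quantile normalisation the difference was -0.43.

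**Figure D4:**
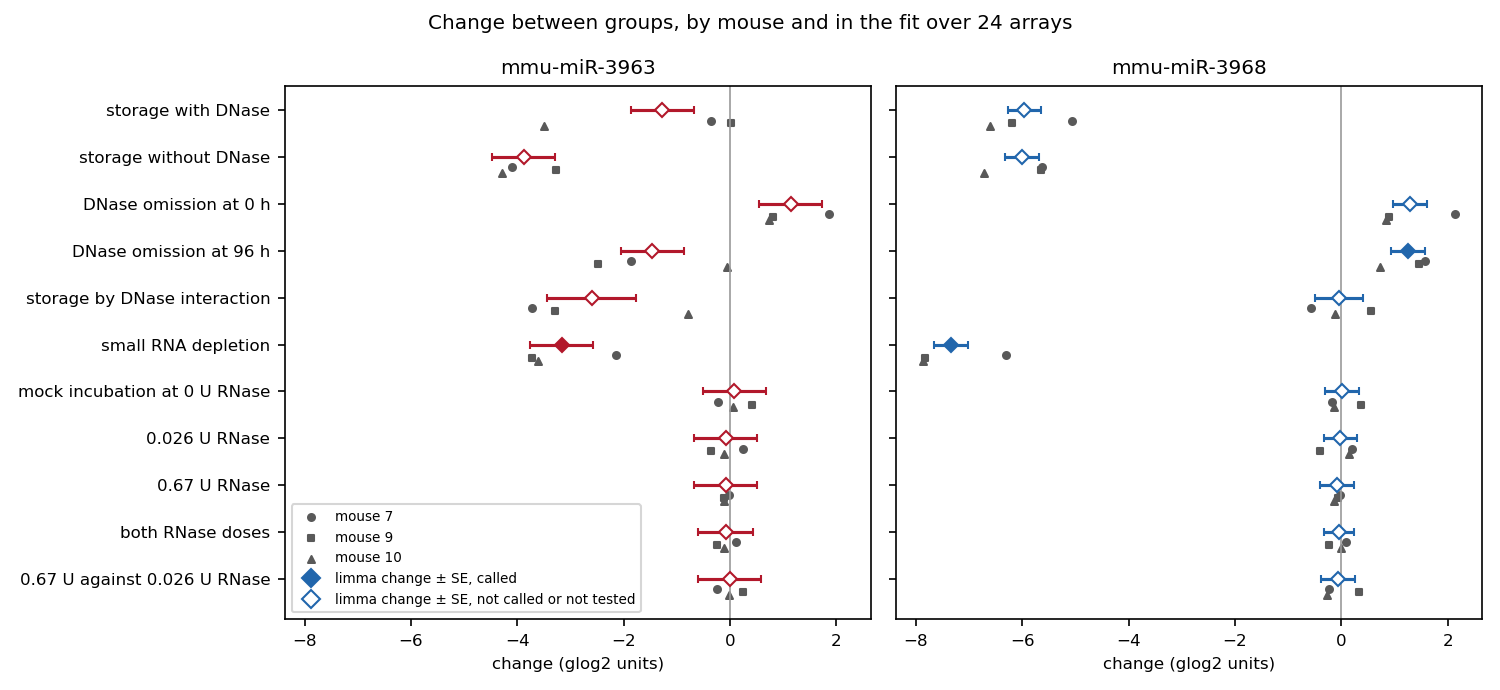
Change of each member in every comparison, in glog2 units: diamonds are the limma change with its SE (filled where called, open where not called or not tested), and small marks are the 3 mice. Storage and depletion move mmu-miR-3968 by -5.96 to -7.34, while the 5 comparisons below depletion lie within 0.1 of 0 for both members.

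By group mean on the glog2 scale, mmu-miR-3963 was ordered 0 h without DNase (15.58 ± 0.10, SD, n = 3), 0 h with DNase (14.44 ± 0.69), 96 h with DNase (13.16 ± 1.64), 96 h without DNase (11.70 ± 0.48) and then the 4 depleted groups (11.27 to 11.36). Among neighbours in this order, 0 h and 96 h with DNase overlapped, the 96 h groups overlapped, and the depleted groups overlapped each other. The 96 h groups with and without DNase also overlapped with the untreated and the 0.026 U depleted groups, but not with those at 0 U and 0.67 U. mmu-miR-3968 was ordered 0 h without DNase (13.32 ± 0.12), 0 h with DNase (12.02 ± 0.81), 96 h without DNase (7.32 ± 0.51), 96 h with DNase (6.06 ± 0.08) and the depleted groups (4.63 to 4.70). Only its depleted groups overlapped. By group mean the stored groups stand in opposite order for the members. For mmu-miR-3963 these 2 groups overlapped, and mouse 10 differed between them by -0.05 only.

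The probes of a member were compared next, as a description, since they are not replicates. For mmu-miR-3963 the dimmer probe gave 0.311 to 0.335 times the brighter on depleted arrays, 0.340 to 0.411 at 0 h and 0.381 to 0.526 at 96 h, where the highest ratio was on the brightest array of the series, mouse 9 with DNase. With depletion the dimmer probe changed by -3.28 and the brighter by -3.12 (log2), and with storage without DNase by -3.93 and -3.86. The probes were farthest apart for storage with DNase, at -1.02 for the dimmer with 1 of 3 mice higher and -1.38 for the brighter with 0 of 3 higher. For mmu-miR-3968 the dimmer probe gave 0.0475 to 0.0492 times the brighter at 0 h and 0.0365 to 0.0447 times at 96 h. On depleted arrays it gave 0.497 to 1.17 units with a spread between spots of 40.6% to 96.9% (coefficient of variation), so there the member was read by its brighter probe alone, at 3.05% to 8.37%.

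Among the 11 other miRNAs that share a run of at least 8 bases with a member, 8 were detected on no array, as were 1002 of all 1881 miRNAs. mmu-miR-191-5p and mmu-miR-7004-3p were among the 8. Of the 3 tested, mmu-miR-5100 was the bright one. It gave 1486, 3083 and 4263 units at 0 h with DNase in mice 7, 9 and 10, and 6957, 7297 and 9290 without. After storage with DNase it gave 5172, 14678 and 1855 units, so mouse 9 was the highest and mouse 10 the lowest, as for mmu-miR-3963.

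In glog2 units mmu-miR-5100 changed with storage by -0.87 with DNase (SE 0.46, limma, adjusted p = 0.0797) and by -3.00 without (SE 0.46, adjusted p = 4.87e-06). With depletion it changed by -8.66 (SE 0.46, adjusted p = 5.56e-12), to between 3.67 and 7.91 units. In storage it so stood with mmu-miR-3963 and in depletion with mmu-miR-3968, with which it shares the longer run. mmu-miR-6401 was detected on the 6 stored arrays and on 2 RNase arrays only, at 13.5 to 21.0 units after storage. It passed the detection filter only through the stored arrays, so no test of storage is given for it. mmu-miR-7211-5p was detected on 22 arrays at 12.6 units or less and was called in no comparison.

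The 12 miRNAs of the array nearest in number, from mmu-miR-3960 to mmu-miR-3971, were checked for a pattern of the naming block. Only mmu-miR-3960, mmu-miR-3963 and mmu-miR-3968 were detected on at least 5 arrays, each on all 24, while mmu-miR-3971 was detected on 4, mmu-miR-3962 on 1 and the other 7 on none. Of all 1881 miRNAs, 631 were detected on at least 5 arrays and 1002 on none. With storage mmu-miR-3960 went the other way from mmu-miR-3968, and without DNase also from mmu-miR-3963. With DNase the raw signal of mmu-miR-3963 rose too in mice 7 and 9 (2.95 and 4.65 times). mmu-miR-3960 gave 53.0 to 102 units at 0 h and 11280 to 23477 after storage, and rose by 5.76 with DNase (SE 0.55, limma, adjusted p = 1.21e-08) and 6.34 without (adjusted p = 4.12e-09). With both RNase doses it rose by 4.64 (SE 0.48, adjusted p = 1.46e-07), from 56.2 to 92.8 units at 0 U to between 933 and 7590 units, and with depletion it changed by 0.10 (adjusted p = 0.953). Such rises were common: of the 631 miRNAs tested, 381 were called higher in storage with DNase, 382 without and 282 with both RNase doses.

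**Figure D5:**
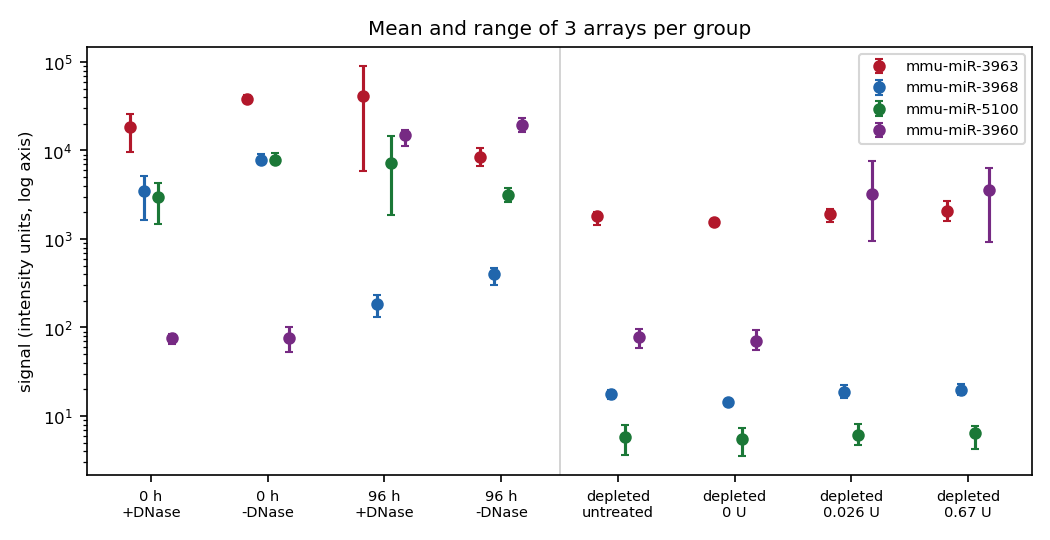
Mean signal of 3 arrays per group, in intensity units on a log axis, with bars from the lowest to the highest array, for the members, mmu-miR-5100 and mmu-miR-3960. Heights of different miRNAs cannot be compared because probes differ. mmu-miR-3960 alone is low at 0 h (53.0 to 102 units) and high after storage and RNase. The other 3 are lower in every depleted group than in every group with small RNAs.

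Over the 24 arrays, the tested miRNAs whose glog2 pattern was most like mmu-miR-3963 were mmu-miR-378c (Pearson r = 0.901, Spearman 0.807), mmu-miR-3968 (0.901 and 0.913) and mmu-miR-6412 (0.898 and 0.739). Those most like mmu-miR-3968 were mmu-miR-30b-5p (0.991 and 0.953), mmu-miR-106b-5p (0.981 and 0.895) and mmu-miR-126a-5p (0.978 and 0.849), of the miR-30, miR-17 and miR-126 families. Of the 24 arrays, mmu-miR-378c was detected on 9, mmu-miR-6412 on 11, mmu-miR-106b-5p and mmu-miR-126a-5p on 12 each, and mmu-miR-30b-5p on 23. Many values behind these correlations were thus below detection. The correlations are descriptions over arrays that share mice, slides and groups. mmu-miR-30b-5p changed with storage by -4.06 with DNase and by -3.84 without. Between the members, r was 0.785 over the 12 arrays with small RNAs and 0.688 over the 12 depleted ones, and mmu-miR-3963 was in place 56 among the miRNAs most like mmu-miR-3968.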

How the data were processed

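The scanner files hold background-subtracted intensity without normalization, which the authors extracted with Agilent Feature Extraction 10.10.1.1. The table deposited for all arrays holds log2 values that the authors made by vsn. A miRNA's signal was its total gene signal where detected, otherwise the sum of its probes' totals. vsn was rewritten in Python 3.11.15 (numpy 2.4.6, scipy 1.17.1, pandas 2.3.3) and fitted to all 1881 miRNAs; results differed from the deposited values by 0.0956 (SD). miRNAs detected on at least 5 of 24 arrays were tested, 631 in all, with limma 3.58.1 (R 4.3.3): 8 group means, moderated variance with a trend, and no term for the mouse. A call needed an adjusted p (Benjamini-Hochberg over all miRNAs tested, two-sided) under 0.05 and a change of at least 1. There were 9 comparisons for 2 members, of which the interaction of storage and DNase is given without its test, since storage chose the members. Both steps were tested on simulated data. Arrays of a mouse have the same replicate number and come from the same animal, so the numbers pair the samples; after removal of group means their deviations correlated at 0.0914 within a mouse and -0.0987 between mice. The 8 arrays of a mouse were on 1 slide in 1 scan, which cannot be told apart from the mouse, and 3 arrays a group limit the precision. Alternatives were other scalings, a normexp background correction (on the median pixel signal of each spot, where mean pixel signals had been planned, offset 50), no filter, leaving out each mouse, a replicate block, the compared groups alone, the rank test of the study's methods, mouse 9 doses by title, and 1 alternative chosen after seeing the data, signals divided by the factor between total and mean processed spot signal, without normalization. The miRNAs named were the members, listed relatives detected on at least 5 arrays and the 3 most alike by correlation. Members and lists were chosen with earlier results of these data known. Sequences and positions are from RefSeq (GRCm38.p6), which held 1608 of the 1881; the files give no coordinates. Of the check lists, all 4 hepatocyte, 2 or 3 of 3 erythrocyte (mmu-miR-451a, mmu-miR-144-3p, mmu-miR-486a-5p) and 2 of 3 leukocyte miRNAs (mmu-miR-223-3p, mmu-miR-142a-3p, mmu-miR-155-5p) were detected on every array of each group with small RNAs. Figures were drawn with matplotlib 3.10.9.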

Additional observations from a re-analysis of the deposited data

How the results depend on the processing

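Adjusted p-values here are from limma, and comparisons are those of the report. Of 334 recalculated values of the members, 242 kept their direction and their side of the threshold (or, for storage, moved by less than the SD), 10 lost a call, 19 gained one, 19 moved by more and 45 turned in sign, 1 of which is also among the lost calls. Of the 45, 41 were within 0.1 of 0 to begin with. The causes were not tested. The replicate block changed no call of the members and moved no count of calls by over 1.5 times: mmu-miR-3968 without DNase at 96 h had an adjusted p of 0.0169, and 66 miRNAs were called there instead of 68.

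Without normalization, storage changed mmu-miR-3968 by -4.14 with DNase and -4.32 without, and mmu-miR-3963 by 0.55 and -2.20. In the order mmu-miR-3963 and mmu-miR-3968, the 0 U incubation gave -0.22 and -0.29, 0.026 U 0.29 and 0.36, 0.67 U 0.39 and 0.41, both doses 0.34 and 0.38, and 0.67 U against 0.026 U 0.10 and 0.049. With mean spot signals as well, a setting chosen after seeing the data, storage gave -4.61 and -4.79 for mmu-miR-3968 and 0.083 and -2.66 for mmu-miR-3963, and the other comparisons in the same order -0.22 and -0.29, 0.15 and 0.22, 0.23 and 0.25, 0.19 and 0.23, and 0.083 and 0.031.

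Scaled to the 75th percentile of the miRNAs detected on all arrays, mmu-miR-3968 changed by -6.86 in storage with DNase, 0.44 in the interaction of storage and DNase and -0.26 at 0 U (mmu-miR-3963 -0.19). With RNase mmu-miR-3968 changed by -1.21 at 0.026 U (adjusted p = 0.0206), -1.53 at 0.67 U (adjusted p = 0.0032) and -1.37 over both doses (adjusted p = 0.0024), and mmu-miR-3963 by -1.55 at 0.67 U (adjusted p = 0.0329) and -1.41 over both (adjusted p = 0.0246). Its depletion change was -0.98 (adjusted p = 0.197). By the 75th percentile of all miRNAs, storage gave -7.53 and -7.70 for mmu-miR-3968 and -5.58 without DNase for mmu-miR-3963, and mmu-miR-3968 changed by -1.02 at 0.67 U (adjusted p = 0.0321). With vsn on the tested miRNAs alone these values were -7.71, -7.44, -5.32 and -1.13 (adjusted p = 0.0095), with 0.27 in the interaction and -0.058 at 0 U for mmu-miR-3968.

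Under quantile normalization storage gave -7.16 and -5.31 for mmu-miR-3968 and -2.59 without DNase for mmu-miR-3963. mmu-miR-3968 changed by -0.18 on omission of DNase at 0 h, 1.86 in the interaction and -0.12 at 0 U. mmu-miR-3963 changed by -2.42 without DNase at 96 h (adjusted p = 0.0418) and by 0 with depletion, since it ranked second on all arrays of both groups. With RNase the members changed by -2.02 (adjusted p = 0.0466) and -1.54 (adjusted p = 0.0055) at 0.026 U, -2.40 (adjusted p = 0.0133) and -2.02 (adjusted p = 0.00038) at 0.67 U, and -2.21 and -1.78 over both. With normexp, which adds an offset, storage gave -4.49 and -4.53 for mmu-miR-3968 and -3.04 without DNase for mmu-miR-3963. mmu-miR-3963 changed by 0.13 with depletion (adjusted p = 0.994), -2.37 without DNase at 96 h (adjusted p = 0.0226), -2.32 at 0.026 U (adjusted p = 0.0098), -2.78 at 0.67 U (adjusted p = 0.0019) and -2.55 over both doses (adjusted p = 0.0011). The 0 U changes were -0.066 and -0.10, and mmu-miR-3968 without DNase at 96 h was at 0.74 (adjusted p = 0.0184), under the change of 1.

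With only the groups compared, mmu-miR-3968 without DNase at 96 h lost its call (1.25, adjusted p = 0.131). By the exact rank test, whose smallest p is 0.1, so did this change (1.25, adjusted p = 0.353) and both depletion changes (-3.16 and -7.34, adjusted p = 0.237). It was not defined for the interaction. With the doses of mouse 9 by title, 0.026 U gave 0.0041 and 0.092, and with the deposited log2 values mmu-miR-3963 differed by 0.0039 between the doses.

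Leaving out 1 mouse gave -2.17 to -0.96 for mmu-miR-3963 and 1.09 to 1.52 for mmu-miR-3968 without DNase at 96 h, and -0.34 to 0.22 for the interaction of mmu-miR-3968. At 0 U the ranges were -0.088 to 0.23 and -0.16 to 0.12, at 0.026 U -0.24 to 0.066 and -0.13 to 0.17, over both doses -0.12 to 0.046 for mmu-miR-3968, and between doses -0.13 to 0.12 and -0.25 to 0.049.

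Counts of miRNAs called moved too. For storage with DNase 517 were called, 147 with normexp and 1215 without a filter, and without DNase 527, 153 and 1136. At 0 h without DNase it was 0 to 8. At 96 h without DNase 68 became 14 with normexp, 152 without mouse 10, 5 without mouse 7 and 30 without mouse 9. The interaction called 7, but 0 without mouse 7 or 9 and 38 with unnormalized spot signals. Depletion called 188, with a range from 69 (normexp) to 353, and the 0 U incubation 11, with a range from 0 (without mouse 7) to 38 (no filter). With normexp 50 instead of 232 were called at 0.026 U, 65 instead of 286 at 0.67 U and 57 instead of 282 over both doses, and without mouse 9 it was 103 at 0.026 U. Between the doses 29 were called with mouse 9 by title, instead of 0. The rank test called 0 wherever it was run, though 303 miRNAs had an unadjusted p under 0.05 for both doses. Depletion called 34 higher and 154 lower, but 257 higher and 96 lower by the 75th percentile of the miRNAs detected on all arrays. Signal over background limits the dimmer probe of mmu-miR-3968 on depleted arrays.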
